A study of Mus musculus with 34 samples.

Results

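The claudin genes analysed here were Cldn1, Cldn2, Cldn3, Cldn4, Cldn5, Cldn7, Cldn8, Cldn11, Cldn15 and Cldn23, 10 genes named by symbol. Of these, 9 had a probe in the platform annotation and Cldn5 was not analysed here. They were measured by 12 of the 25697 probes of the array, and all 12 were among the 21110 probes tested. Distal colon RNA came from 34 mice (female, BALB/c, 8 weeks old at the start), and that of each mouse was hybridised to its own 1-colour Illumina bead array. TNBS, a hapten given in ethanol that elicits a T cell driven colitis, was first applied to the skin and then instilled rectally in 3 weekly and increasing doses. Colons were taken on TNBS days 9, 14 and 16 and on TNBS days 21, 23 and 28 (5 mice each), and from healthy mice (n = 4), whose handling and vehicle exposure the labels do not give. Days 9, 16 and 23 lay 2 days after the first, the second and the third instillation, and days 14, 21 and 28 lay 7 days after them. Every day is a separate set of mice, so that no animal was followed over time, and no group is labelled as vehicle only, so that the effects of TNBS and of ethanol cannot be told apart.

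Claudins are membrane proteins that form the strands of tight junctions, and their extracellular loops set which ions and how much water pass between neighbouring epithelial cells. Sealing claudins narrow this path, whereas pore-forming claudins open it to selected ions. Here Cldn1, Cldn3, Cldn4, Cldn5, Cldn8 and Cldn11 were counted as sealing, Cldn2 and Cldn15 as pore-forming, and Cldn7 and Cldn23 were left in neither class. In the colon each claudin has its own distribution along the crypt axis, and higher Cldn2 is a known feature of human inflammatory bowel disease.

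Cldn4 and Cldn3 are neighbours in the genome, in the gene order Cldn13, Mettl27, Cldn4, Cldn3 on chromosome 5, and Cldn15 lies on the same chromosome. Since Cldn4 passed the test on several days and its neighbour Cldn3 on none, the sequences around their starts are shown, with that of Cldn15, the other member with an AP-1 match, 250 bases before to 50 bases after the annotated start, on the strand of the gene, from RefSeq on GRCm38.p6. The Cldn4 window is chr5:134946885-134947184 (minus strand), the Cldn3 window chr5:134985964-134986263 (plus strand) and the Cldn15 window chr5:136967619-136967918 (plus strand). Capitals mark matches, on either strand, to the letters of an AP-1 element (TGANTCA), a GC box (GGGCGG), an E-box bound by Snail factors (CAGGTG) or a grainyhead-like element (AACCNGTT), none of which overlap in these windows.
Cldn4: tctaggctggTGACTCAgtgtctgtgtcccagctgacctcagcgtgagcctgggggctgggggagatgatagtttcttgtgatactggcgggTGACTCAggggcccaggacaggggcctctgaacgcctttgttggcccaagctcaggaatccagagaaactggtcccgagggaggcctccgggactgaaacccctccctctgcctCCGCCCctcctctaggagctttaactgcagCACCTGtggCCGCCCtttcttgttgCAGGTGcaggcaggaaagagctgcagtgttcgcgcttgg
Cldn3: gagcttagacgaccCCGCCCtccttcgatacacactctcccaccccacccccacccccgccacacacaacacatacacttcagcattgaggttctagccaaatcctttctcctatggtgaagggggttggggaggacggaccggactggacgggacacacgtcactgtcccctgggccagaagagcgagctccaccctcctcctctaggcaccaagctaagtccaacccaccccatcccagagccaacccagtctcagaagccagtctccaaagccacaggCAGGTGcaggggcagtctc
Cldn15: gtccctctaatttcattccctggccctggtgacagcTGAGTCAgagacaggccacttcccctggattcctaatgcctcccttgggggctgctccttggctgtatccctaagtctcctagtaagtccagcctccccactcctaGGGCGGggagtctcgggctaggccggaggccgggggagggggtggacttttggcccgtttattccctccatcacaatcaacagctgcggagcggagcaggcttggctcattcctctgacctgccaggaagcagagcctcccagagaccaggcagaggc

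The Cldn4 window held 2 AP-1 matches, which start 240 and 158 bases before the annotated start, together with 2 GC boxes and 2 E-boxes. The Cldn3 window held 1 GC box and 1 E-box and the Cldn15 window 1 AP-1 match and 1 GC box. Over all 32851 windows of this length, 7.81% held an AP-1 match, 35.7% a GC box, 20.2% an E-box and 2.09% a grainyhead-like match. Windows were found for 8 of the 10 claudins, and no further AP-1 match was seen among them. Cldn10, a claudin outside these 10 that is described below, had 2 windows with 0 AP-1 matches and 3 GC boxes. Such matches describe letters only and do not show that a factor binds there.

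Signals are log2 values after the authors' normalization, floored at a linear value of 5 (2.32 on the log2 scale). Background was set per array at the 95th percentile of 1324 probes for sensory receptors (olfactory, vomeronasal and trace amine), which lay between 4.48 and 4.93 on the log2 scale. By this measure 6 claudins were detected in every mouse, namely Cldn2, Cldn3, Cldn4, Cldn7, Cldn15 and Cldn23. Cldn8 was above background on 25 of 34 arrays with its brighter probe and on 0 with the other, Cldn1 on 17, and Cldn11 on 1. Differences were tested with limma, in which the 34 arrays and 7 groups shared 1 estimate of the spread, with p-values adjusted over all tested probes within each comparison at 0.05. Since the tissue was not separated into cell types, fewer cells of a type and less RNA per cell cannot be told apart.

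Across the whole series the arrays were alike in quality, with correlations within groups between 0.927 and 0.951 and between 48.5% and 52.8% of probes above background. The 8 epithelial markers tested were above background in all mice, and their mean lay between 12.52 and 13.02 in TNBS mice and between 12.58 and 12.77 in healthy mice. One of them, the keratin Krt18, was higher on TNBS days 16, 23 and 28 (0.45, 0.62 and 0.43, limma adjusted p = 0.0115, 0.000379 and 0.0309). In 5 arrays (TNBS day 9 mice 2, 3 and 5, day 14 mouse 5 and day 21 mouse 5) skeletal muscle markers averaged more than 3 log2 units above the healthy mean. In 3 arrays (TNBS day 9 mice 4 and 5 and day 14 mouse 4) markers of squamous epithelium did so. Of the 5 arrays of TNBS day 9, 4 thus carried one or the other, and calls on that day that were lost without these arrays are given as such.

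Counted over the 12 probes, 1 was higher on TNBS day 9 (Cldn4), against 1.19% of all tested probes called higher in that comparison. On TNBS day 16, 1 was higher (Cldn4), with 1.98% of all probes, and 1 lower (Cldn1), with 1.94%. On TNBS day 23, 1 was higher (Cldn4), with 3.49% of all probes, and 1 lower (Cldn7), with 3.51%. Each of these counts is a single gene.

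On TNBS days 14, 21 and 28 limma called 0 claudin probes, with 0.459%, 0.701% and 1.26% of all probes called in either direction. At an unadjusted p under 0.05 there were 1 (Cldn1), 2 (Cldn4 and Cldn11) and 1 (Cldn4). Between TNBS groups, day 28 against day 23 had 1 lower probe (Cldn4), with 1.1% of all probes lower, and the pooled comparison 1 higher probe (Cldn4), with 2.96% of all probes higher. Day 14 against day 9, day 21 against day 16, day 23 against day 9 and day 28 against day 14 had 0 calls in limma, with 2, 4, 2 and 0 probes at an unadjusted p under 0.05. Of all probes, 0.734%, 1.21%, 0.194% and 0.00947% were called there.

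Groups of mice that did not overlap were seen for Cldn4 on TNBS days 9, 16 and 23, where 2.37%, 4.16% and 3.8% of all tested probes lay wholly above healthy mice. Cldn1 on day 16 and Cldn7 on day 23 lay wholly below them, as did 4.84% and 4.42% of all probes.

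**Figure D1:**
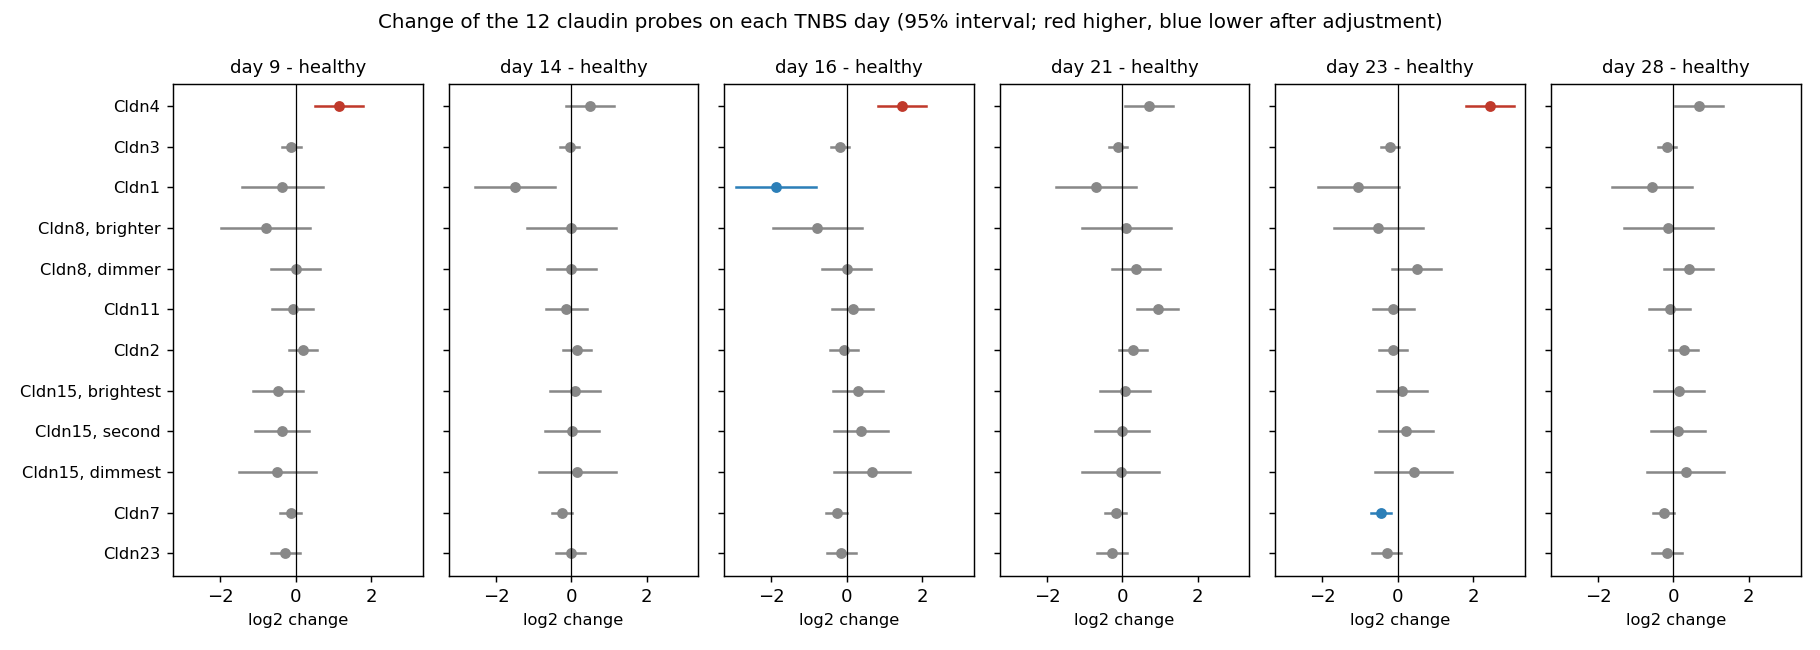
Log2 change of the 12 claudin probes (rows) on each TNBS day relative to healthy mice, as points with 95% intervals from the limma fit. Red marks a higher and blue a lower level past the adjusted threshold, and grey marks no call. Cldn4 is higher by 1.15, 1.46 and 2.44 on days 9, 16 and 23. The other intervals that leave out 0 are those of Cldn4 on days 21 and 28, Cldn1 on days 14 and 16, Cldn11 on day 21 and Cldn7 on day 23.

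Of the 9 claudins measured, Cldn4 was the only one called on more than 1 TNBS day. It was higher 2 days after each instillation, and 7 days after each it lay closer to healthy mice and did not pass the test. Cldn4 is a sealing claudin that lowers the passage of sodium between cells in cultured kidney epithelium, and it is a receptor of the Clostridium perfringens enterotoxin. On TNBS day 23 the signal was 13.05, 10.82, 11.24, 11.42 and 11.73 in the 5 mice, against 9.49, 8.95, 9.27 and 9.14 in the 4 healthy mice. All TNBS day 23 mice lay above all healthy mice, and mouse 1 stood above the other 4.

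**Figure D2:**
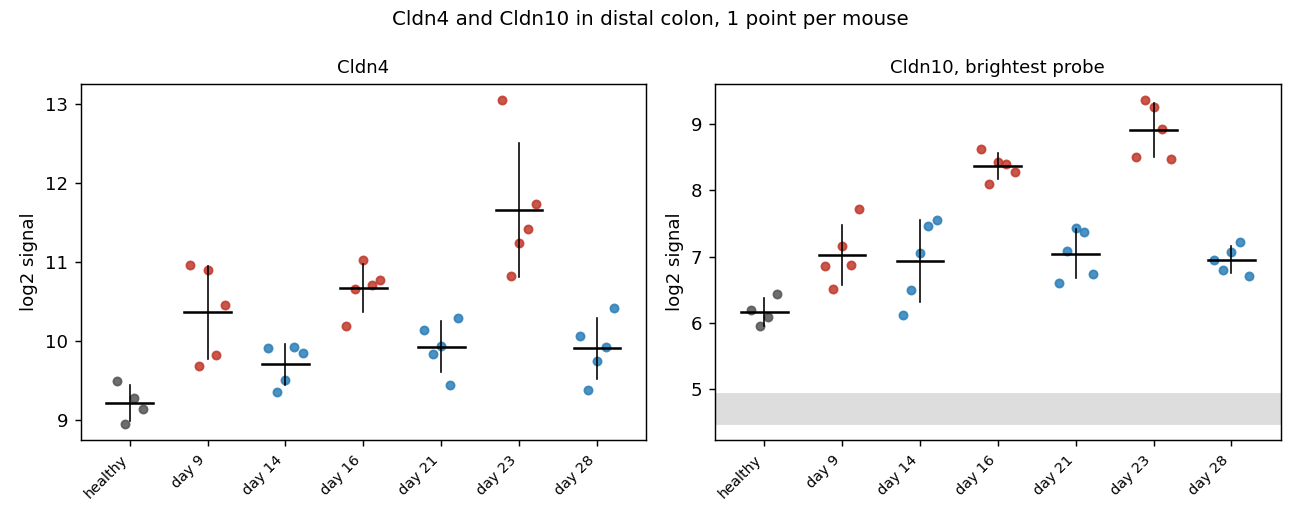
Log2 signal of Cldn4 and of the brightest Cldn10 probe in each mouse (points) with the group mean (line) and SD (bar), for healthy mice and TNBS days in order. Red points are 2 days and blue points 7 days after an instillation, and the grey band is the range of the background. Cldn4 averaged 11.65 on day 23 and 9.21 in healthy mice.

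The mean Cldn4 difference on TNBS day 23 was 2.44 (SE 0.31, a 5.4-fold higher level, limma adjusted p = 1.9e-05). Without mouse 1 it was 2.09 (limma adjusted p = 9.45e-06). On TNBS day 16 the signal was 10.18, 10.65, 11.02, 10.71 and 10.77, again above every healthy mouse, and the difference was 1.46 (SE 0.31, 2.74-fold, limma adjusted p = 0.00708). On TNBS day 9 it was 10.96, 9.68, 10.89, 9.82 and 10.45, with a difference of 1.15 (SE 0.31, 2.22-fold, limma adjusted p = 0.0478). These mice too lay above all healthy mice, but mice 2 and 4 by a small margin.

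The Cldn4 call on TNBS day 9 was close to the threshold. It did not pass without the 5 arrays with skeletal muscle markers (1.17, limma adjusted p = 0.188) or without the 3 arrays with squamous markers (1.30, limma adjusted p = 0.0864), although the difference itself was as large. It was also lost without TNBS day 9 mouse 1, 3 or 5 or any 1 of the healthy mice (limma adjusted p up to 0.121). On TNBS days 16 and 23 the call was kept whichever array of the groups compared was left out, and without the muscle or squamous arrays.

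On the days that lay 7 days after an instillation, the signal was 9.90, 9.36, 9.50, 9.92 and 9.84 on TNBS day 14, with a difference from healthy mice of 0.49 (SE 0.31, limma adjusted p = 0.614). On TNBS day 21 it was 10.13, 9.83, 9.93, 9.45 and 10.28 (0.71, limma adjusted p = 0.348). On TNBS day 28 it was 10.06, 9.38, 9.74, 9.92 and 10.42 (0.69, limma adjusted p = 0.327). In each of these groups 1 mouse lay within the range of the healthy mice, and the 95% intervals reached from -0.15 to 1.13, 0.07 to 1.35 and 0.06 to 1.33 on days 14, 21 and 28.

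Ordered by the group mean, Cldn4 was highest on TNBS day 23 (11.65 ± 0.85, SD), followed by day 16 (10.67 ± 0.30), day 9 (10.36 ± 0.59), day 21 (9.92 ± 0.32), day 28 (9.91 ± 0.39), day 14 (9.70 ± 0.26) and healthy mice (9.21 ± 0.23). Each pair of neighbours in this order overlapped, day 14 and healthy mice in 1 mouse of day 14 only.

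Between the days of a round, Cldn4 passed the test after the third instillation only. Cldn4 averaged 9.91 on TNBS day 28 and 11.65 on day 23, a difference of -1.75 (SE 0.29, 0.298-fold, limma adjusted p = 0.00121), with every mouse of day 28 below every mouse of day 23, as for 1.86% of all tested probes. In a fit of these 2 groups alone, where the spread is estimated from 10 mice, it did not pass (limma adjusted p = 0.117). Without TNBS day 23 mouse 1 the difference was -1.40 (limma adjusted p = 0.00233). Day 14 against day 9 gave -0.66 (SE 0.29, limma adjusted p = 0.368) and day 21 against day 16 -0.74 (SE 0.29, limma adjusted p = 0.204).

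Pooled over the 3 rounds, Cldn4 averaged 10.89 on days 9, 16 and 23 and 9.84 on days 14, 21 and 28, a difference of 1.05 (SE 0.17, 2.07-fold, limma adjusted p = 0.000193). This call was kept under all alternatives run, each array left out in turn among them. Without TNBS day 23 mouse 1 the difference was 0.93 (limma adjusted p = 6.29e-05). Between the first and the third instillation, day 23 exceeded day 9 by 1.29 (SE 0.29), just short of the threshold (limma adjusted p = 0.0526). It passed under 4 of 11 alternatives (limma adjusted p between 0.0186 and 0.691 over all 11) and without TNBS day 9 mouse 1 or 3 or TNBS day 23 mouse 2 (limma adjusted p = 0.024, 0.0364 and 0.0191). Day 28 exceeded day 14 by 0.20 (SE 0.29, limma adjusted p = 0.900).

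None of the other sealing claudins was called higher on any TNBS day. Cldn3, which lies next to Cldn4 and binds the same enterotoxin, had the narrowest range of the 6 claudins detected in every mouse, between 11.81 and 12.54. It averaged 12.10 ± 0.21 on TNBS day 23 and 12.30 ± 0.18 in healthy mice (SD), a difference of -0.21 (95% interval -0.45 to 0.04, limma adjusted p = 0.354). On the other days the difference from healthy mice lay between -0.18 and -0.04, and on no day did it pass the test. The intervals leave out a rise of Cldn3 beyond 0.20 on any TNBS day.

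**Figure D3:**
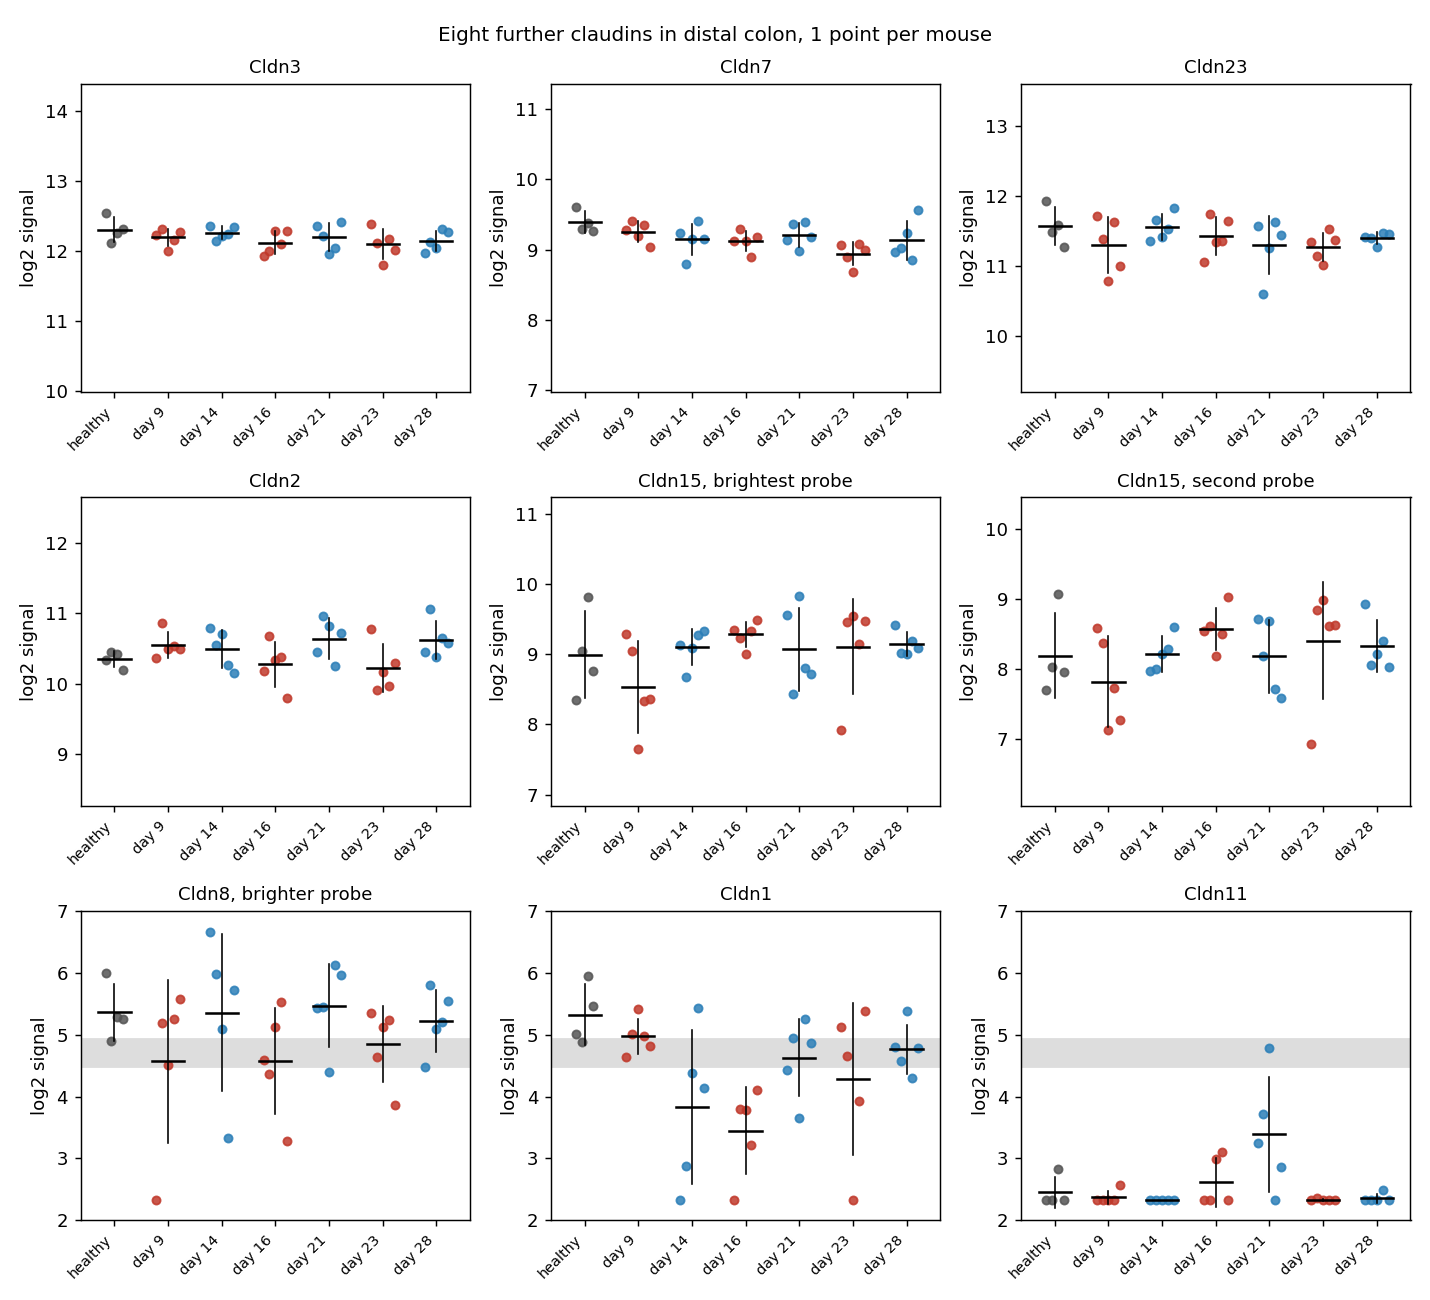
Log2 signal of the further claudins in each mouse (points) with the group mean (line) and SD (bar), for healthy mice and TNBS days in order; red is 2 days and blue 7 days after an instillation. The upper panels share one scale length, and the lower panels, between 2 and 7, show the range of the background in grey. Cldn3 stayed between 11.81 and 12.54, while Cldn1 on day 16 lay below background in all mice.

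Cldn1, a sealing claudin without which mice die of water loss through the skin, was dim. On TNBS day 16 its signal was 2.32, 3.80, 3.79, 3.21 and 4.11, below background in all 5 mice, against 5.01, 4.88, 5.96 and 5.46 in healthy mice, all above it. The groups did not overlap, and the measured difference was -1.88 (SE 0.52, limma adjusted p = 0.0371), at least 1.55-fold lower with this background. With background at the 99th percentile of the receptor probes, 1 of 4 healthy mice was above it and no bound can be given. The call was lost without the muscle arrays (limma adjusted p = 0.0581) and without TNBS day 16 mouse 1, 2 or 4 or healthy mouse 1, 3 or 4 (limma adjusted p up to 0.12). No muscle array is of TNBS day 16 or of healthy mice, so leaving them out changed the spread and the adjustment but not the difference.

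On the other days Cldn1 did not pass the test. The signal was 2.32, 2.88, 4.39, 5.44 and 4.14 on TNBS day 14 (difference from healthy mice -1.49, SE 0.52, limma adjusted p = 0.232) and 5.12, 4.65, 2.32, 3.93 and 5.38 on TNBS day 23 (-1.05, SE 0.52, limma adjusted p = 0.263). On TNBS days 9, 21 and 28 the differences were -0.35, -0.70 and -0.56. The same 4 healthy mice stand in each of these comparisons.

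Cldn8, known for its place in the surface epithelium of the distal colon where it limits the back-leak of sodium, ranged widely among mice. Its brighter probe gave values between 2.32 and 5.58 on TNBS day 9, between 3.28 and 5.53 on day 16 and between 3.87 and 5.36 on day 23, against between 4.89 and 6.0 in healthy mice, so that the groups overlapped. The differences were -0.79, -0.78 and -0.52 on these days and 0.11 and -0.13 on days 21 and 28, with day 14 almost level with healthy mice, none past the test (limma adjusted p between 0.549 and 1). Averaged over the 3 rounds, Cldn8 was at 4.67 on days 9, 16 and 23 and at 5.35 on days 14, 21 and 28, a difference of -0.69 (SE 0.31, limma adjusted p = 0.23). Without the 3 arrays with squamous markers this difference was -1.05 and passed (limma adjusted p = 0.0341). The second Cldn8 probe was below background on every array.

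Cldn11, best known from myelin and from the junctions between Sertoli cells, was above background in a single mouse, TNBS day 21 mouse 3, at 4.79. The other mice of that day were at 3.25, 3.71, 2.32 and 2.86, against 2.32, 2.32, 2.83 and 2.32 in healthy mice. The difference of 0.94 (SE 0.27) did not pass (limma adjusted p = 0.0971), and with a floor of 20 it was 0.09. Without TNBS day 21 mouse 4, which was at the floor, it was 1.20 and passed (limma adjusted p = 0.0128). As both groups were mostly below background, no fold is given.

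The pore-forming claudins showed no change that passed the test on any TNBS day. Cldn2 forms a pore for cations and water and is found towards the crypt base in the colon. It averaged 10.55 ± 0.18 on day 9, 10.49 ± 0.27 on day 14, 10.27 ± 0.32 on day 16, 10.64 ± 0.29 on day 21, 10.22 ± 0.35 on day 23 and 10.62 ± 0.27 on day 28 (SD, n = 5 each). In healthy mice it averaged 10.35 ± 0.12 (SD, n = 4). The largest difference from healthy mice was 0.29 on TNBS day 21 (95% interval -0.08 to 0.67, limma adjusted p = 0.588), and over all 6 days the intervals lay between -0.50 and 0.67.

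Between the days of the third round Cldn2 overlapped. It was at 10.62 on TNBS day 28 and 10.22 on day 23, a difference of 0.40 (SE 0.17, limma adjusted p = 0.33). Pooled over the rounds it averaged 10.35 on days 9, 16 and 23 and 10.58 on days 14, 21 and 28, a difference of -0.24 (SE 0.10, limma adjusted p = 0.188).

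Cldn15, which forms a sodium pore that feeds sodium-coupled absorption in the small intestine of mice, had 3 probes. Across the 34 arrays, which share groups and normalization, their signals correlated with r between 0.84 and 0.91. With the brightest probe the signal on TNBS day 9 was 9.29, 9.04, 7.64, 8.33 and 8.36, against 8.35, 9.05, 9.81 and 8.76 in healthy mice. The groups overlapped and the difference was -0.46 (95% interval -1.12 to 0.20, limma adjusted p = 0.551). On the later days the difference from healthy mice lay between 0.08 and 0.29 with this probe and did not pass with any of the 3.

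A single mouse of TNBS day 23 had the lowest Cldn15 signal of its group with all 3 probes. With the brightest probe mouse 1 was at 7.92 and the other mice at 9.46, 9.54, 9.14 and 9.47. With the second probe it was at 6.93 against 8.84, 8.98, 8.62 and 8.62, and with the third at 4.39 against 6.17, 6.25, 5.50 and 6.38. It is the mouse with the highest Cldn4 signal of all 34. In the same mouse Cldn2 was at 10.78, the highest of its group, and Cldn3 at 12.39, also the highest.

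Cldn7 and Cldn23 are expressed in colonic epithelium and were assigned to neither class. Mice without Cldn7 in the intestine develop inflammation of the mucosa, and its effect on ion passage differs between cell systems. On TNBS day 23 Cldn7 was at 9.07, 8.90, 8.68, 9.07 and 8.99, against 9.61, 9.29, 9.38 and 9.27 in healthy mice. All TNBS day 23 mice lay below all healthy mice, with a difference of -0.44 (SE 0.13, 0.735-fold, limma adjusted p = 0.0401). The call was lost without the muscle arrays (limma adjusted p = 0.0532), with the adjustment taken over all 6 days at once (limma adjusted p = 0.0741), in a fit of only these groups (limma adjusted p = 0.0951), with mouse number as a block (-0.46, limma adjusted p = 0.0524) and without TNBS day 23 mouse 2, 3 or 5 or healthy mouse 1, 2 or 3 (limma adjusted p up to 0.157). No muscle array is of TNBS day 23 or of healthy mice, so leaving them out changed the spread and the adjustment but not the difference.

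On the other TNBS days Cldn7 was between -0.26 and -0.13 from healthy mice and did not pass the test. Cldn23, a claudin enriched at the colonic surface, averaged between 11.28 and 11.55 on the TNBS days and 11.57 ± 0.27 in healthy mice (SD, n = 4). Its differences lay between -0.29 and -0.02, with limma adjusted p between 0.428 and 1.

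The median change of the 5 sealing claudins measured was -0.11, -0.04, -0.18, 0.11, -0.21 and -0.13 on TNBS days 9, 14, 16, 21, 23 and 28. For the 2 pore-forming claudins it was -0.13, 0.13, 0.11, 0.18, -0.01 and 0.21, while the median of all 14010 tested genes lay between -0.02 and 0.00. Within the sealing class the range on day 23 ran from -1.05 for Cldn1 to 2.44 for Cldn4. In the narrower class of Cldn1, Cldn3 and Cldn11, which leaves out Cldn4 and Cldn8, the median on day 23 was -0.21 as well. Cldn1, Cldn8 and Cldn11 lay near or below background. Over the 2 sealing claudins detected in every mouse, Cldn3 and Cldn4, the median is the mean of the 2 genes. It was 0.52, 0.22, 0.64, 0.30, 1.12 and 0.27 on TNBS days 9, 14, 16, 21, 23 and 28. On each of these days Cldn4 averaged above and Cldn3 below the healthy mean. The difference between classes was not tested.

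**Figure D4:**
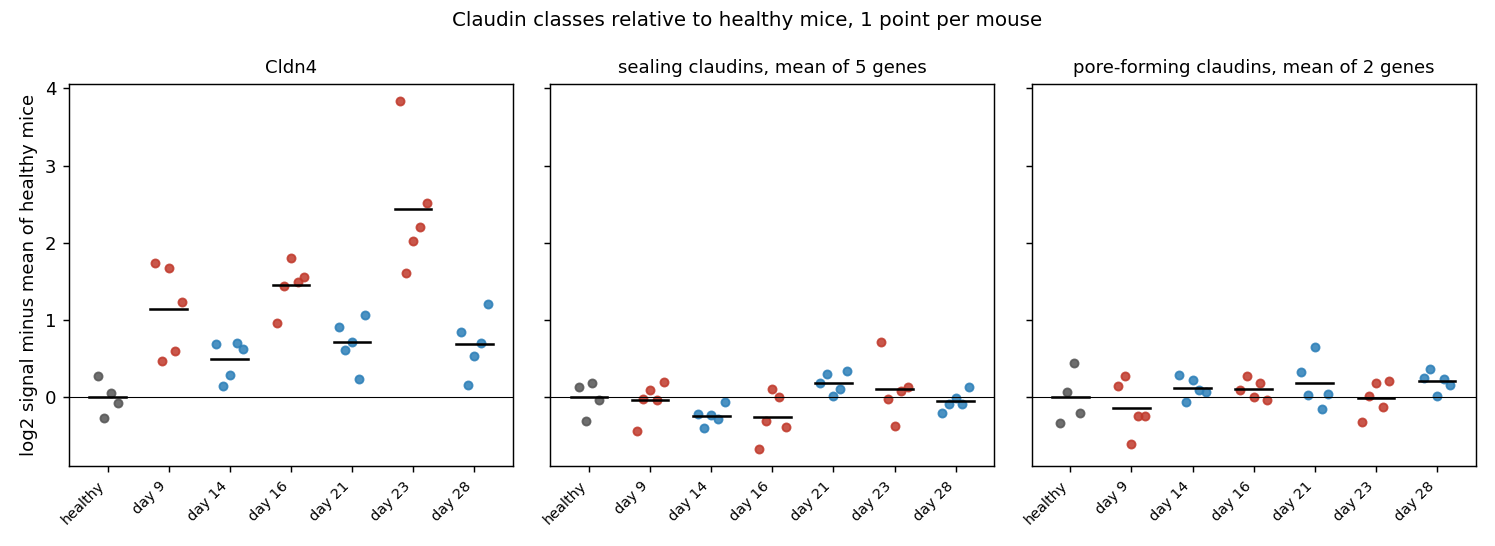
Log2 signal minus the mean of the healthy mice in each mouse for Cldn4 (left), the mean of the 5 sealing claudins with a probe, Cldn4 among them (middle), and the mean of Cldn2 and Cldn15 (right), with group means as lines and colours as in the other plots by mouse. The class means lie between -0.66 and 0.72 in every mouse, while Cldn4 alone exceeds the healthy mean by more than this in all mice of day 23.

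A further 14 genes of the claudin family had 19 probes on the array, of which 16 were tested. They were Cldn6, Cldn9, Cldn10, Cldn12, Cldn13, Cldn14, Cldn16, Cldn17, Cldn18, Cldn19, Cldn34b2, Cldn34b3, Cldn34b4 and Cldn34c1. Cldn10, whose splice forms make pores for anions or for cations, was the only one of them that passed the test in any comparison. With its brightest probe it was at 8.50, 9.36, 9.25, 8.93 and 8.47 on TNBS day 23, against 6.19, 5.95, 6.08 and 6.44 in healthy mice.

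All TNBS day 23 mice exceeded all healthy mice, by 2.74 on average (SE 0.26, limma adjusted p = 2.79e-07). On TNBS day 16 Cldn10 was at 8.62, 8.09, 8.43, 8.39 and 8.27, a difference of 2.19 (SE 0.26, limma adjusted p = 9.26e-06). On TNBS day 9 it averaged 7.02 and did not pass. Day 28 lay below day 23 (-1.95, SE 0.24, limma adjusted p = 3.56e-05), and day 21 below day 16 (-1.31, SE 0.24, limma adjusted p = 0.00762). Across the 34 arrays, which share these groups, Cldn4 and this probe correlated at r = 0.72.

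Of the other Cldn10 probes, 2 passed in the same direction on TNBS days 16 and 23, one of them only as a bound (at least 2.03-fold and at least 2.63-fold higher), and the last was below background on every array. For the probe with the bound, the day 16 call was lost under 3 of 11 alternatives (limma adjusted p up to 0.054) and with 8 of the 9 arrays left out singly (limma adjusted p up to 0.184), and the day 23 call without healthy mouse 1 (limma adjusted p = 0.055). Cldn12 was above background in all mice, between 9.34 and 10.52, and was not called. Cldn13, which lies beyond Mettl27 from Cldn4, was above background on 4 arrays.

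Genes whose signal ran most like that of Cldn4 over the 34 arrays were Sema7a (r = 0.91), H6pd (r = 0.88) and Mmp10 (r = 0.86). Within groups, after the group means were taken off, these correlations were 0.76, 0.66 and 0.53. For the brightest Cldn15 probe they were Dpep1 (0.855), Ffar2 (0.82) and Slc12a8 (0.81), and for Cldn3 they were Nudt4 (0.72), Mgst3 (0.68) and Ipmk (0.67). For Cldn1, Cldn2, Cldn7, Cldn8 and Cldn23 the highest r lay between 0.63 and 0.70. These values describe arrays that share groups and normalization, among 12163 probes compared.

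Of 35 tight junction genes listed beside the claudins, among them the scaffold proteins Tjp1 and Tjp3 and the membrane proteins Ocln and F11r, 24 were tested. None passed in limma on TNBS days 9, 14, 16, 21 or 28, where 5, 1, 6, 2 and 1 of them had an unadjusted p under 0.05. The list's median change was -0.08 on day 9, -0.10 on day 16 and -0.02 on day 23, beside -0.02, 0.00 and -0.02 for all genes. Esam and Jam3 were higher on TNBS day 23, where 3.49% of all probes were called higher. Esam, an adhesion molecule of endothelial junctions and platelets, averaged 9.86 ± 0.36 on TNBS day 23 and 9.11 ± 0.10 in healthy mice (SD), a difference of 0.75 (SE 0.15, limma adjusted p = 0.00255).

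Jam3 was above background in 2 of 5 TNBS day 23 mice and 0 of 4 healthy mice (difference 1.82, limma adjusted p = 0.0458), and with a floor of 20 the difference was 0.25 (limma adjusted p = 0.328). Of 13 endothelial markers tested, 6 were higher on TNBS day 23 as well (3.49% of all probes), and the mean of the list lay between 7.33 and 7.85 in day 23 mice and between 6.76 and 7.0 in healthy mice; their part in the Esam result was not tested. Of the defining endothelial genes, Pecam1 was higher (0.96, limma adjusted p = 0.00383) and Kdr was above background on 0 arrays. In a fit of only these groups Esam did not pass (limma adjusted p = 0.0851).

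Ocln, the first transmembrane protein found in tight junctions, averaged 8.30 on days 9, 16 and 23 and 8.58 on days 14, 21 and 28 (difference -0.29, SE 0.09, limma adjusted p = 0.0425). This call was lost under 3 of 10 alternatives (limma adjusted p up to 0.112). Against healthy mice Ocln did not pass on TNBS day 23 (-0.43, limma adjusted p = 0.099).

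Of the neighbouring junctions, 1 of 6 adherens junction genes and 1 of 6 desmosome genes tested were lower. Of all 21110 tested probes, 172, 48, 409 and 742 were called lower on TNBS days 9, 14, 16 and 23. Nectin3, an adhesion molecule that binds afadin, was lower on TNBS days 16 (-0.39, limma adjusted p = 0.0433) and 23 (-0.54, limma adjusted p = 0.00282). These calls were lost under 3 and 1 of 11 alternatives (limma adjusted p up to 0.0667 and 0.0596). Dsg2, the desmosomal cadherin of simple epithelia, averaged 8.34 ± 0.30 on TNBS day 23 and 9.18 ± 0.20 in healthy mice (SD), a difference of -0.84 (SE 0.15, limma adjusted p = 0.000671). It was lower also on days 9, 14 and 16 (-0.59, -0.69 and -0.79, limma adjusted p = 0.0351, 0.0317 and 0.00301). The Dsg2 call on day 9 was lost without the muscle arrays (-0.53, limma adjusted p = 0.231) and without the squamous arrays (-0.48, limma adjusted p = 0.182), and that on day 14 without the muscle arrays (-0.65, limma adjusted p = 0.0762). The median change on TNBS day 23 was 0.01 for the adherens junction genes and -0.08 for the desmosome genes.

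Among 9 tested partners and modifiers of claudins, such as the protease St14 and the kinases Wnk1 and Mylk, none passed in limma against healthy mice (3, 1, 2, 1, 3 and 1 at an unadjusted p under 0.05 on the 6 days in order), with median changes of -0.18, -0.18 and -0.24 on TNBS days 9, 16 and 23. Spint1, an inhibitor of such proteases, was lower on TNBS day 14 than on day 9 (-0.46, limma adjusted p = 0.0406). Both days hold arrays with muscle or squamous markers, and this call was not re-tested without them. Of 13 transcription factors known to act on claudin promoters, Vdr was lower on TNBS day 23 (-0.58, limma adjusted p = 0.0434), and the median of the list was 0.05. The Vdr call was lost under 5 of 11 alternatives (limma adjusted p up to 0.239), and 3.51% of all probes were called lower on that day. Snai1, a repressor that binds E-boxes, was higher on days 9, 16 and 23 than on days 14, 21 and 28 (0.57, limma adjusted p = 0.0222), as was the epithelial factor Elf3 (0.19, limma adjusted p = 0.0327). In that comparison 2.96% of all probes were called higher. The Snai1 and Elf3 calls were each lost under 2 of 10 alternatives (limma adjusted p up to 0.129 and 0.0774).

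Of 11 cytokines tested that are known to act on junctions, 3, 1 and 4 were higher on TNBS days 9, 16 and 23, beside 1.19%, 1.98% and 3.49% of all tested probes, and none passed in limma on days 14, 21 and 28 (2, 1 and 2 at an unadjusted p under 0.05). The median change of the list was 0.70, 0.62 and 0.67 on TNBS days 9, 16 and 23 and 0.59 on day 28. Most of the list lay near or below background, which limits what this median can show. Il10 and Il17a were above background on 0 arrays, Il6 on 2, Lif on 5, Il4 on 7, Il13 on 8 and Ifng on 9. Osm, a cytokine of the interleukin-6 family, was at least 4.06-fold higher on TNBS day 9 and at least 3.9-fold higher on day 23, above background in all mice of these days and in no healthy mouse (limma adjusted p = 0.00892 and 0.00316). Tgfb1 was higher by 0.93, 1.16 and 1.56 on TNBS days 9, 16 and 23 (limma adjusted p = 0.0391, 0.00597 and 0.000201). Il1b was higher by 3.07 on day 9 and 2.32 on day 23 (limma adjusted p = 0.0146 and 0.0348), calls that were each lost under 3 of 11 alternatives (limma adjusted p up to 0.305 and 0.0663). Over these alternatives the Il1b difference on day 9 lay between 1.88 and 3.07. The remaining call of day 23 was Il4, lost under 6 of 11 alternatives (limma adjusted p up to 0.251). Its difference lay between 0.99 and 2.44 over them.

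All 3 cytokine calls of TNBS day 9 were lost without the muscle arrays (Osm 2.64, Tgfb1 1.13 and Il1b 1.88, limma adjusted p = 0.119, 0.081 and 0.305). Without the squamous arrays Tgfb1 (0.79) and Il1b (2.86) did not pass (limma adjusted p = 0.208 and 0.063), whereas Osm did (3.14, limma adjusted p = 0.0318).

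Over these lists 25 results passed the test against healthy mice or between the pooled days. Of these, 5 were kept by all alternatives other than leaving out an array, and 14 did not pass in a fit of only the groups compared.

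Among 9 surface colonocyte markers tested, 8 were above background in all mice. The mean of the list lay between 9.85 and 10.75 on TNBS day 9, between 9.77 and 10.35 on day 16 and between 9.81 and 10.30 on day 23, against between 10.57 and 11.11 in healthy mice. On days 14, 21 and 28 it lay between 10.3 and 10.7, 10.2 and 10.7, and 10.1 and 10.5. Day 28 was thus also wholly below healthy mice. On day 23, 3 of these markers were lower (3.51% of all probes), namely Slc26a2 (-1.53), Aqp8 (-0.83) and Car4 (-0.68). Of 6 crypt base markers tested, 1, 2 and 2 were higher on TNBS days 9, 16 and 23, beside 1.19%, 1.98% and 3.49% of all tested probes. These were Cd44 (0.78, 0.71 and 0.68) and Sox9 (0.76 and 0.73 on days 16 and 23). The list averaged 5.89 in healthy mice and 6.56, 6.73, 6.54, 6.39, 6.49 and 6.50 on TNBS days 9, 14, 16, 21, 23 and 28. Its mean was thus higher on every TNBS day. Of 7 leukocyte markers tested, S100a8 and S100a9 were higher on days 9 and 23 (1.19% and 3.49% of all probes). The leukocyte list averaged 5.64 in healthy mice, 7.74, 6.88 and 7.39 on TNBS days 9, 16 and 23. On days 14, 21 and 28 it averaged 6.13, 5.87 and 5.32, the last below healthy mice. Itgam of this list was above background on 0 arrays and Ptprc on 22. On day 9 the calls of Cd44, S100a8 and S100a9 were lost without the muscle arrays (limma adjusted p = 0.0852, 0.264 and 0.126), and those of Cd44 and S100a8 also without the squamous arrays (limma adjusted p = 0.0986 and 0.0874). The part of these cell types in the claudin results was not tested.

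Of 12 markers of squamous epithelium tested, 2 were higher on TNBS days 9, 16 and 23, beside 1.19%, 1.98% and 3.49% of all tested probes. Krt13 averaged 8.48 ± 1.94 on TNBS day 9, 7.84 ± 0.70 on day 16 and 8.61 ± 0.51 on day 23, against 3.57 ± 1.48 in healthy mice (SD), of which 1 of 4 was above background. Sprr1a averaged 8.01 ± 1.02, 7.86 ± 0.46 and 8.0 ± 0.40 on these days and 6.46 ± 0.32 in healthy mice (SD). Without the squamous arrays the day 9 difference was 3.71 for Krt13 (limma adjusted p = 0.0032) and 1.04 for Sprr1a, which did not pass (limma adjusted p = 0.182). Of the defining squamous genes, Ivl was above background on 0 arrays, Trp63 and Krt4 on 2 and Krt5 on 9. The mean of the list lay between 5.05 and 5.39 on TNBS day 23, against between 4.24 and 4.61 in healthy mice. On that day no array had the mean of the squamous or skeletal muscle list more than 3 units above the healthy mean. Krt13 by itself lay that far above its healthy mean in all mice of day 23, between 8.2 and 9.5. The part of squamous epithelium in the Cldn4 result was not tested.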

How the data were processed

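RNA of the distal colon of 34 mice was hybridised to Illumina mouse bead arrays, 1 per mouse. The deposited values are log2 signals that the authors background-subtracted, quantile-normalized and exported from GeneSpring, after extraction in Illumina's software, for which the submitters' processing notes name GenomeStudio. Quantile normalization gives every array the same distribution, so that a shift of all probes cannot be seen. A second table of non-normalized signals holds 68 columns named by chip position, which no label pairs with a mouse, and was not used here, so that chip effects were not examined. Probes were named through the platform annotation.

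Values were floored at a linear 5, and 21110 of 25697 probes, those over this floor on 4 or more arrays, were tested. All 34 arrays in 7 groups entered a single limma fit (limma 3.58.1, R 4.3.3, 27 residual degrees of freedom), with 12 contrasts and Benjamini-Hochberg adjustment within each at 0.05. The number of arrays limits the precision. The labels give separate mice, but numbers that pair none between days. Where a probe was below background in every mouse of a group, a fold is given as a lower bound, from the bright group's mean against, per array, the higher of the background limit and the dim probe's own signal. A gene with several probes is represented by the brightest. The procedure was tested on simulated data.

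The members and the gene lists were chosen with earlier results of these data known. All claudins were named, at most 4 genes of each further list, those with the lowest p in the comparison discussed, and for each claudin probe above background in at least 17 arrays the genes with the most similar signal; list markers and single genes named beyond this were chosen after their values were seen. Alternatives changed the floor, the probe filter, the arrays in the fit, the variance model, array weights, the adjustment and the background limit, and left out single arrays, the 5 arrays with skeletal muscle markers or, chosen after seeing the data, the 3 arrays with squamous markers.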

Additional observations from a re-analysis of the deposited data

Results flagged for a closer look

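In 77 groups of 4 or 5 values of a claudin probe on 1 day, 3 held a mouse whose distance from the nearest of the others was large for the range of its group, a pattern that chance gives in about 1 of 20 groups. All 3 were Cldn15 probes. TNBS day 23 mouse 1 had 7.92 with the brightest probe, below 9.14 to 9.54 in the other 4 mice, and 6.93 with the second probe, below 8.62 to 8.98. TNBS day 14 mouse 2 had 4.66 with the dimmest probe, below 5.53 to 5.79. The TNBS day 23 mouse is the one with the highest Cldn4 signal, and the cause was not tested.

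The brightest Cldn10 probe differed between 2 days that both lay 2 days after an instillation. It averaged 8.90 on TNBS day 23 and 7.02 on day 9, a difference of 1.88 (SE 0.24, limma adjusted p = 2.76e-05). Between these days 0.194% of all tested probes were called in either direction. In a fit of only these groups the adjusted p was 0.0858.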

How the results depend on the processing

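The count of claudin probes called on TNBS day 9 (1) was 0 with no probe filter, with only the groups compared in the fit, without the muscle arrays and without the squamous arrays. On TNBS day 16 (2) it was 1 without the muscle arrays. On TNBS day 23 (2) it was 1 with only the groups compared, with mouse number as a replicate block, with the adjustment taken over comparisons of the same kind and without the muscle arrays. For day 28 against day 23 (1) it was 0 with only the groups compared. For day 23 against day 9 (0) it was 1 with no floor and an offset of 16, with the filter on receptor background, with trend and robust moderation and with the replicate block. For the pooled days (1) it was 2 without the squamous arrays, where Cldn8 passed as well. No called difference reversed its direction under any alternative. The median of the sealing claudins on TNBS day 21 did change sign, from 0.11 to -0.11 in the narrower class. No muscle array is of TNBS day 16, TNBS day 23 or healthy mice. On these days leaving them out thus changed only the spread and the adjustment. With single arrays left out the counts ran from 0 to 1 on TNBS day 9, 1 to 2 on day 16, 0 to 1 on day 21 and 1 to 2 on day 23. They ran from 0 to 1 for day 21 against day 16 and for day 23 against day 9, and did not change in the other comparisons. Without TNBS day 21 mouse 4, Cldn11 passed on TNBS day 21 (1.20, limma adjusted p = 0.0128). Mouse numbers did not pair the arrays, as 99 pairs of the same number in different groups correlated between -0.13 and 0.15 (median 0.0058), so that the block shares only a number; under it Cldn7 on day 23 was -0.46 (limma adjusted p = 0.0524). The adjustment over comparisons of the same kind could not be made for the pooled comparison, which has none. Cldn1, Cldn8 and Cldn11 lay near background, which limits what these arrays can show of them.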
